A study of Mus musculus with 18 samples.

Results

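The mouse Cyp2c family was followed in liver RNA through 9 probe sets, 1 for each of 9 genes, out of 22690 probe sets on the array. The members were chosen by name as Cyp2c29, Cyp2c37, Cyp2c38, Cyp2c39, Cyp2c40, Cyp2c44, Cyp2c50, Cyp2c54, Cyp2c55 and Cyp2c70, and a probe set was taken where the annotation of the array platform gives that symbol alone. Of these 10 genes, 8 were found under their own symbol. Cyp2c44 was found by its gene identifier under the symbol Cyp2c23, of which Cyp2c44 is an older name. No probe set carries the symbol Cyp2c40, so that gene is not analysed here, and 0 of the 9 probe sets shares its symbol entry with another gene. All 9 were tested, with no filter on low values. Livers came from male C57BL/6J mice aged 10 to 16 weeks, 18 in all, with 1 array per liver. WT mice, Liver Fxr KO mice and Whole body Fxr KO mice were each given vehicle or GW4064, a synthetic agonist of FXR, with n = 3 arrays in each of the 6 groups. FXR, the nuclear receptor for bile acids, is the product of Nr1h4. The labels give 2 gavages of 150 mg per kg with the liver taken 2 hours after the last, whereas the methods describe, for WT mice, a lower dose given 1 more time and an overnight fast. In Liver Fxr KO mice, floxed Fxr alleles were removed by Cre under the albumin promoter, which acts in hepatocytes, and other liver cells and the gut keep the gene. In Whole body Fxr KO mice all tissues lack it. Floxed mice without Cre and littermate controls are not among the samples used here, so genotype and mouse line cannot be told apart.

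Cyp2c enzymes are cytochromes P450 of the endoplasmic reticulum, abundant in hepatocytes, that take electrons from P450 reductase and insert oxygen into drugs, steroids and fatty acids. Most mouse members turn arachidonic acid into epoxides or hydroxy acids, lipid signals that act on blood vessels and inflammation, while a few have other known substrates such as retinoic acid or bile acids. Their transcription in liver is known to respond to the drug receptors CAR (Nr1i3) and PXR (Nr1i2), to growth hormone and to inflammation. In the mouse, 15 protein-coding Cyp2c genes lie on chromosome 19 (GRCm38.p6), in the order Cyp2c55, Cyp2c65, Cyp2c66, Cyp2c29, Cyp2c39, Cyp2c38, Cyp2c67, Cyp2c68, Cyp2c40, Cyp2c69, Cyp2c37, Cyp2c54, Cyp2c50 and Cyp2c70, with Cyp2c44 apart from the others. The genes are close copies, and whether a probe set also binds the transcript of a neighbour was not tested. The array holds probe sets for 2 further genes of the row, Cyp2c65 and Cyp2c68, whose values are given where they bear on the members.

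All values are log2 expression levels as deposited, in which a difference of 1 is a change by a factor of 2, and levels of different probe sets are not set against each other. Differences were tested with limma over all 22690 probe sets with the 6 groups in a common fit, and a probe set passed where the Benjamini-Hochberg adjusted p was under 0.05. Nr1h4 itself lay between 8.83 and 9.39 in the 6 WT arrays and between 3.98 and 4.69 in the 12 knockout arrays, which separates WT from knockout arrays, while the ranges of the 2 knockouts overlapped, so that this probe set does not tell which knockout an array is. Alb, the hepatocyte product albumin, lay between 14.78 and 14.97 in all 18 arrays. Array medians ran from 5.96 to 6.00. The arrays of WT GW4064 replicate 1 and Whole body Fxr KO GW4064 replicate 3 had the widest spread of expression relative to the median array, with interquartile ranges of 0.255 and 0.224, and values without them are given beside the results of Cyp2c29, Cyp2c38, Cyp2c39, Cyp2c44 and Cyp2c55 in which they take part. In bulk liver, fewer hepatocytes and less RNA per hepatocyte cannot be told apart.

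**Figure D1:**
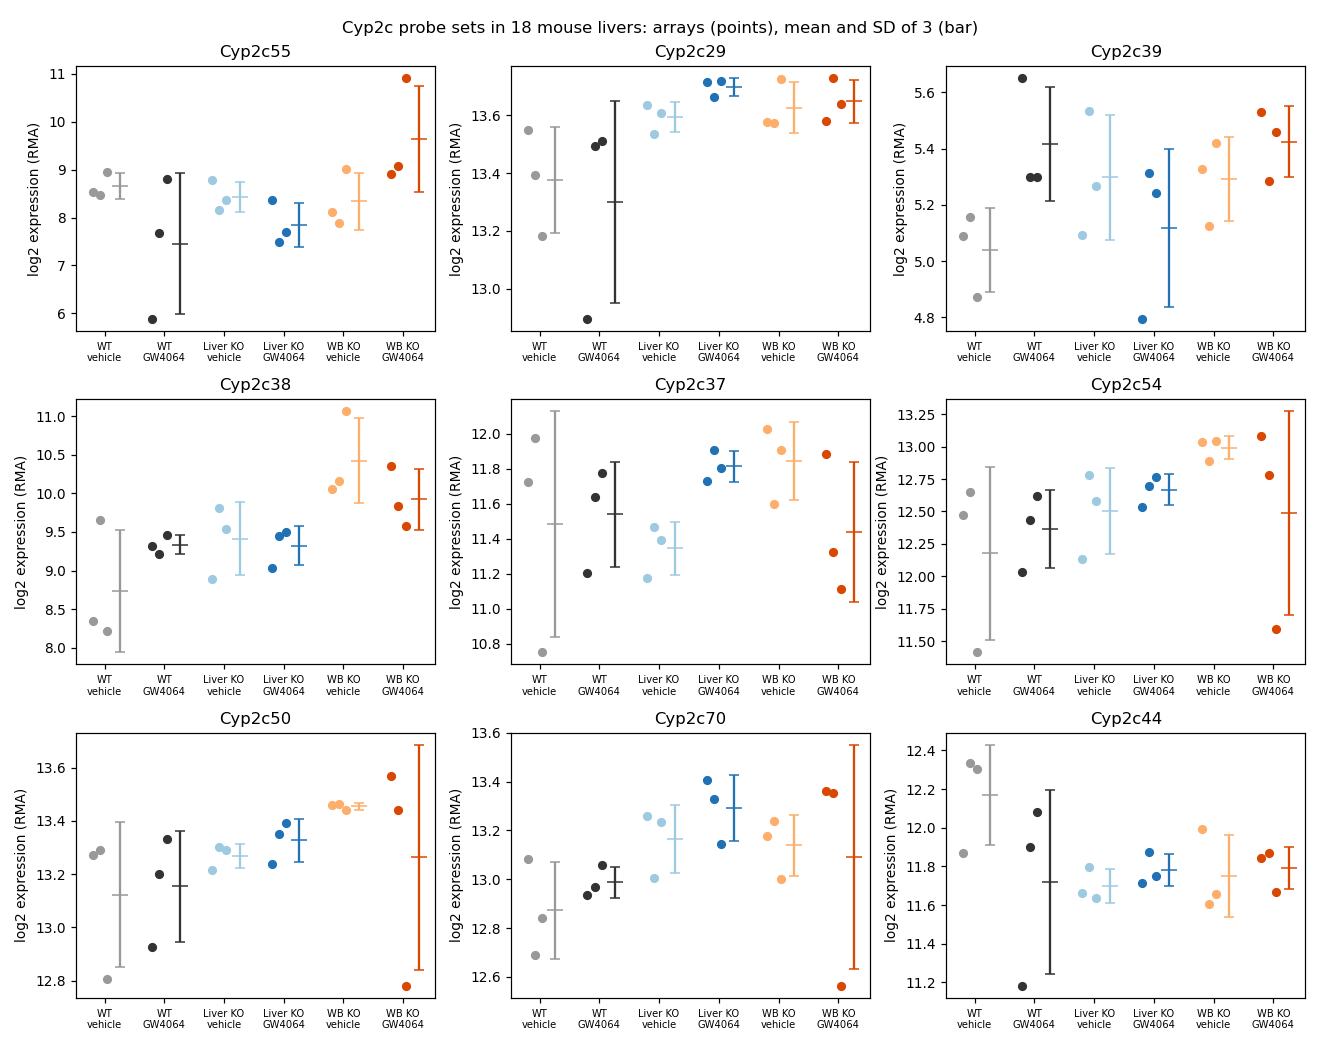
Log2 expression of the 9 Cyp2c probe sets, 1 panel per gene in chromosome order, with arrays as points in the order of their replicate numbers and the group mean with its SD (n = 3) as a bar. Vertical axes differ between panels and do not start at 0. Cyp2c38 is the member whose Whole body Fxr KO vehicle arrays (10.05 to 11.07) all lie above the WT vehicle arrays (8.21 to 9.65) with the greatest gap between means, and Cyp2c55 spreads most, from 5.89 to 10.91.

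Cyp2c38, which makes epoxides of arachidonic acid, was the only member that passed the test in any of the 8 comparisons, and it did so between Whole body Fxr KO and WT livers given vehicle. Its level was 8.34, 9.65 and 8.21 in the WT vehicle arrays and 10.05, 10.16 and 11.07 in the Whole body Fxr KO vehicle arrays. The groups did not overlap, although WT replicate 2 lay closer to the knockout arrays than to the other WT arrays. The difference was 1.69 (SE 0.34, 95% interval 0.98 to 2.41), or 3.23 fold higher in the knockout, with an adjusted p of 0.0216 (limma). This was 1 of 9 members past the threshold, and 0.948% of all probe sets passed it in that comparison. The call was lost, at adjusted p of 0.0888, when limma was fitted on the compared groups alone and, at 0.0722, with a trended and robust prior. It was also lost without WT vehicle replicate 1 (adjusted p 0.0887), WT vehicle replicate 3 (adjusted p 0.0983) or Whole body Fxr KO vehicle replicate 3 (adjusted p 0.117), where the difference was at least 1.37.

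In Liver Fxr KO livers given vehicle, Cyp2c38 lay at 8.89, 9.82 and 9.54. These values overlapped the WT range and lay below all 3 Whole body Fxr KO arrays. The difference of Liver Fxr KO from WT was 0.68 (SE 0.34, 95% interval -0.04 to 1.39, limma adjusted p 0.443), or 0.42 without WT vehicle replicate 3, and that of Whole body from Liver Fxr KO was 1.01 (95% interval 0.30 to 1.73, adjusted p 0.207). GW4064 arrays of Cyp2c38 lay at 9.32, 9.22 and 9.46 in WT, at 9.03, 9.45 and 9.49 in Liver Fxr KO and at 10.36, 9.83 and 9.58 in Whole body Fxr KO mice. With GW4064 too, the Whole body Fxr KO arrays were all above the WT arrays. This pair of groups is not among the 8 comparisons, and the share of all probe sets so placed was not counted. With vehicle that share was 9.67%. The order of the 6 group means was WT vehicle (8.73), Liver Fxr KO GW4064 (9.32), WT GW4064 (9.33), Liver Fxr KO vehicle (9.41), Whole body Fxr KO GW4064 (9.92) and Whole body Fxr KO vehicle (10.43). The SD within these groups ran from 0.12 to 0.80, and the ranges of neighbours in this order overlapped in every case. Averaged over vehicle and GW4064, a comparison chosen after the data were seen, Cyp2c38 was 1.14 higher in Whole body Fxr KO than in WT livers (SE 0.24, limma adjusted p 0.00819), in a comparison in which 6.49% of all probe sets passed. Without the 2 arrays that stood apart it was 1.22 (adjusted p 0.0146). Without Whole body Fxr KO GW4064 replicate 3 alone, 6.36% of all probe sets passed. Cyp2c50 (0.34, limma adjusted p 0.0305), Cyp2c54 (0.69, adjusted p 0.0337) and Cyp2c70 (0.32, adjusted p 0.0241) were then among them. Cyp2c70 then passed in Liver Fxr KO against WT too (0.30, adjusted p 0.0321, 4.32% of all). With all arrays, or without both that stood apart, these other members did not pass.

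Cyp2c68, which lies in the same row of genes and is not among the chosen members, passed the same test. It measured 11.97, 12.50 and 12.15 in WT vehicle arrays, 12.48, 12.74 and 12.65 in Liver Fxr KO vehicle arrays and 12.84, 12.68 and 13.20 in Whole body Fxr KO vehicle arrays. The Whole body Fxr KO arrays were all above the WT arrays, by 0.70 on average (SE 0.16, limma adjusted p 0.0408), while the Liver Fxr KO arrays overlapped WT at a difference of 0.42 (adjusted p 0.273). The call of Cyp2c68 was lost without replicate 1 or 3 of either the WT or the Whole body Fxr KO vehicle arrays, with differences of at least 0.56. With GW4064 it ran from 11.66 to 12.02 in WT, 12.07 to 12.46 in Liver Fxr KO and 12.71 to 13.08 in Whole body Fxr KO arrays. Averaged over vehicle and GW4064, its difference from WT was 0.87 in Whole body Fxr KO livers (limma adjusted p 0.000142, 6.49% of all probe sets passed). In Liver Fxr KO livers that average was 0.41 (adjusted p 0.0521, 3.45% of all). Cyp2c65, a relative known from the gut, lay between 3.36 and 3.81 in all 18 arrays, and 0 of its 8 comparisons passed.

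The promoters of Cyp2c38 and Cyp2c39 are shown because these neighbours are near copies whose probe sets did not pass the test together. The Cyp2c39 probe set read low in all 18 arrays, between 4.79 and 5.65, below the array medians. Each window runs from 250 bases before to 50 bases after a RefSeq transcription start (GRCm38.p6). Capitals mark TATAAA (the TATA box) and TTANGTAA, both searched on both strands. TTANGTAA, with any base at N, is a looser pattern than the D box bound by the clock factors Dbp, Tef and Hlf. Cyp2c38 is at chr19:39463026-39463325 on the minus strand, and the upstream window of the 2 listed for Cyp2c39 is at chr19:39347096-39347395 on the plus strand. The other Cyp2c39 window, at chr19:39510572-39510871 on the plus strand and not shown, holds TATAAA. The absence of these letters below thus belongs to the shown window and not to the gene. The Cyp2c38 window lies between the 2 Cyp2c39 windows.
Cyp2c38: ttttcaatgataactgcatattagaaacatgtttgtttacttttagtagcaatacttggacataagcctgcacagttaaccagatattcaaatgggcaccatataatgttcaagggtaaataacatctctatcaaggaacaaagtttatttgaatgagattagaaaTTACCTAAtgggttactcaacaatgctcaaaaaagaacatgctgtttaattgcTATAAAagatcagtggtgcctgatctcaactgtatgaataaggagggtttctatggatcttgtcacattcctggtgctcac
Cyp2c39: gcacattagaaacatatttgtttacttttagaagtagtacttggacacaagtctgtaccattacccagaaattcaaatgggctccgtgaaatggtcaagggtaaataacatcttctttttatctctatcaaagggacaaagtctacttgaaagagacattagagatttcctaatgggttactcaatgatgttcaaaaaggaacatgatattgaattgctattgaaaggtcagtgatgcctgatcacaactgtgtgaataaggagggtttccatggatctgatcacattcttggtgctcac
The 2 shown windows were identical at 246 of 285 aligned bases (86.3%). Between the other Cyp2c39 window and that of Cyp2c38, 239 of 271 aligned bases were identical (88.2%). TATAAA was present in 6 of the 9 Cyp2c windows held by RefSeq for 8 members, against 13.6% of all 32851 windows searched. In the Cyp2c70 window the match lies on the other strand only. Several of the 9 windows are near copies, so they are not separate draws to set against that share. TTANGTAA was present in the Cyp2c38 window alone among the 9, against 2.32% of all windows. The stretch there, TTACCTAA, matches on the other strand with G at N, and whether Dbp, Tef or Hlf bind it was not tested. AGGTCA, the hexamer that many nuclear receptors read, was present in 3 of the 9 windows (16.3% of all). Direct repeats of AGGTCA with 1 or 4 bases between them and its inverted repeat with 1 base between were present in 0 of the 9 and in at most 0.0396% of all windows, and any match to them would count for the hexamer too. CAAAGTCCA, read by Hnf4a, was present in the windows of Cyp2c40 and Cyp2c70 (0.475% of all), while TTCNNNGAA, read by STAT factors (8.3% of all), was present in 0 of the 9.

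Cyp2c29, an epoxide-forming enzyme known as a CAR target, spread over a wider range in WT than in the knockouts, with SDs of 0.18 with vehicle and 0.35 with GW4064 against 0.03 to 0.09. The SD of 0.35 rests on WT GW4064 replicate 1, without which it was 0.01. WT vehicle arrays measured 13.55, 13.39 and 13.18 and WT GW4064 arrays 12.89, 13.49 and 13.51. Liver Fxr KO arrays measured 13.64, 13.54 and 13.61 with vehicle and 13.72, 13.66 and 13.72 with GW4064, and Whole body Fxr KO arrays 13.58, 13.57 and 13.73 with vehicle and 13.58, 13.73 and 13.64 with GW4064. The 12 knockout arrays ran from 13.54 to 13.73 and the 6 WT arrays from 12.89 to 13.55. These ranges met only at their ends. Such pooling of treatments and knockouts is not among the 8 comparisons, and the share of all probe sets so placed was not counted. With vehicle the difference from WT was 0.22 in Liver Fxr KO (SE 0.13, limma adjusted p 0.544) and 0.25 in Whole body Fxr KO livers (adjusted p 0.429), and without WT vehicle replicate 3 these were 0.12 and 0.15. Averaged over vehicle and GW4064 the differences were 0.31 (SE 0.09, adjusted p 0.0771, 3.45% of all probe sets past the threshold) and 0.30 (adjusted p 0.0612), neither past the threshold. Without WT GW4064 replicate 1 they were 0.21 (adjusted p 0.12) and 0.20 (adjusted p 0.0969).

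Cyp2c37, Cyp2c54 and Cyp2c50 are neighbours on the chromosome that act on arachidonic and linoleic acid, and their profiles over the 18 arrays were close to each other. The root mean square difference between profiles, each centred on its own mean, was 0.226 for Cyp2c37 and Cyp2c50, 0.255 for Cyp2c50 and Cyp2c54 and 0.256 for Cyp2c37 and Cyp2c54. The closest pair of all 36 member pairs was Cyp2c50 and Cyp2c70 (0.181) and the farthest was Cyp2c54 and Cyp2c55 (1.15). Profiles with a small spread lie close to each other whatever their shape, and the 18 arrays share groups and libraries, so these are descriptions.

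Cyp2c54 had the second largest difference between Whole body Fxr KO and WT livers. It measured 12.47, 12.65 and 11.41 in WT vehicle arrays, 12.14, 12.78 and 12.58 in Liver Fxr KO vehicle arrays and 13.04, 12.89 and 13.05 in Whole body Fxr KO vehicle arrays. The Whole body Fxr KO arrays were above all others given vehicle, and WT replicate 3 was far below the rest. The difference from WT was 0.81 (SE 0.32, unadjusted p 0.0227, limma adjusted p 0.278), and it was 0.43 without WT vehicle replicate 3. With GW4064 the levels were 12.03, 12.44 and 12.62 in WT, 12.53, 12.70 and 12.77 in Liver Fxr KO and 13.08, 12.78 and 11.59 in Whole body Fxr KO mice, where replicate 3 was the low array.

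Cyp2c50 measured 13.27, 13.29 and 12.81 in WT, 13.22, 13.30 and 13.29 in Liver Fxr KO and 13.46, 13.46 and 13.44 in Whole body Fxr KO livers given vehicle. The Whole body Fxr KO arrays did not overlap either other genotype, at a difference of 0.33 from WT (SE 0.17, limma adjusted p 0.408), which was 0.17 without WT vehicle replicate 3. Cyp2c37 measured 11.72, 11.97 and 10.75 in WT, 11.18, 11.47 and 11.39 in Liver Fxr KO and 12.03, 11.60 and 11.91 in Whole body Fxr KO livers given vehicle. Its Whole body Fxr KO arrays lay above the Liver Fxr KO arrays by 0.50 (95% interval -0.03 to 1.02, adjusted p 0.45) and overlapped WT. The low array of both genes in WT was again replicate 3. With GW4064, Cyp2c37 lay above the vehicle range in all 3 Liver Fxr KO arrays (11.73, 11.91 and 11.81), a difference of 0.47 (SE 0.25, adjusted p 0.999).

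The windows of Cyp2c37 (chr19:39992174-39992473, plus strand) and Cyp2c50 (chr19:40089429-40089728, plus strand) are shown because they were the most alike of the members' promoters, with 264 of 295 aligned bases identical (89.5%). No window is held for Cyp2c54.
Cyp2c37: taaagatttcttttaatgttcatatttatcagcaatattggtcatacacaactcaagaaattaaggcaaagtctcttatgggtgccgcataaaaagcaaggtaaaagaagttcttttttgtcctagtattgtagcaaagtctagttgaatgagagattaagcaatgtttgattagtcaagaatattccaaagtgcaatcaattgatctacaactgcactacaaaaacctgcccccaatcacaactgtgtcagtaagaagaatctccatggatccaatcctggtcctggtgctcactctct
Cyp2c50: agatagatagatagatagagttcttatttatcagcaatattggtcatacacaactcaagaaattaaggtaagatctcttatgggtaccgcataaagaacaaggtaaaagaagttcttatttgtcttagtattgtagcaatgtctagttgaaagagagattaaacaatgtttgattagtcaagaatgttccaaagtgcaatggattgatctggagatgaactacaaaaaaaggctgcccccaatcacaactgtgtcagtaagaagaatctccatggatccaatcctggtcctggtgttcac
Neither holds TATAAA or TTANGTAA on either strand.

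Cyp2c44, an epoxide-forming enzyme studied in kidney as well as liver, had the lowest difference from WT of all members in both knockouts given vehicle. It measured 11.87, 12.34 and 12.30 in WT vehicle arrays, 11.66, 11.80 and 11.64 in Liver Fxr KO vehicle arrays and 11.99, 11.60 and 11.66 in Whole body Fxr KO vehicle arrays. The Liver Fxr KO arrays were all below WT, at a difference of -0.47 (SE 0.18, unadjusted p 0.0178, limma adjusted p 0.283), and this was the only member not overlapping there, where 19.8% of all probe sets do not overlap. The Whole body Fxr KO difference was -0.42 (adjusted p 0.321) with overlapping groups. With GW4064 the levels were 11.18, 11.90 and 12.08 in WT, 11.72, 11.87 and 11.75 in Liver Fxr KO and 11.84, 11.87 and 11.67 in Whole body Fxr KO mice. The WT difference between treatments, -0.45 (unadjusted p 0.0229, adjusted p 0.335), was -0.18 without GW4064 replicate 1 and -0.63 without GW4064 replicate 3.

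Cyp2c55, a hydroxylase of arachidonic acid known as a target of CAR and PXR, varied most of all members, with an SD of 0.989 over the 18 arrays. With vehicle it measured 8.53, 8.48 and 8.96 in WT, 8.77, 8.16 and 8.36 in Liver Fxr KO and 8.12, 7.88 and 9.01 in Whole body Fxr KO livers. The 3 genotypes overlapped with vehicle. With GW4064 it measured 5.89, 7.68 and 8.80 in WT, 8.36, 7.49 and 7.69 in Liver Fxr KO and 8.92, 9.07 and 10.91 in Whole body Fxr KO livers. The 2 extreme values of the gene, 5.89 and 10.91, were those of the 2 arrays that stood apart from the rest.

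The GW4064 difference of Cyp2c55 was -1.20 in WT (SE 0.57, limma adjusted p 0.442). It was -0.42 without WT GW4064 replicate 1 and -1.88 without WT GW4064 replicate 3. In Liver Fxr KO mice it was -0.58 (SE 0.57, adjusted p 0.999). In Whole body Fxr KO mice it was 1.29 (unadjusted p 0.0379, adjusted p 0.797) and 0.65 without replicate 3 of its GW4064 arrays. The treatment effect in WT minus that in Whole body Fxr KO mice was -2.50 (95% interval -4.21 to -0.78, adjusted p 0.509). This difference of effects was -1.71 without WT GW4064 replicate 1, -1.86 without Whole body Fxr KO GW4064 replicate 3 and -1.07 without both. Without WT GW4064 replicate 3 it was -3.17.

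Other genes were also extreme on those 2 arrays. In WT GW4064 replicate 1, Lcn2, an acute-phase protein, measured 13.65 against 5.70 to 6.43 in WT vehicle arrays, and the median of 23 acute-phase genes lay 1.39 above the WT vehicle mean, against 1.16 and 0.22 in replicates 2 and 3. The median of 4 neutrophil markers lay 1.28 above that mean in replicate 1, 0.60 in replicate 2 and -0.09 in replicate 3. In Whole body Fxr KO GW4064 replicate 3, Hsd3b5 and Slco1a1, which are male-biased in mouse liver, measured 4.91 and 6.85, against 9.03 and 9.09 or more in every other array, and female-biased Cyp2b9 measured 11.25 against at most 8.29 elsewhere. Their part in the Cyp2c values was not tested.

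The genes whose profiles over the 18 arrays were closest to that of Cyp2c55, among 12114 named genes outside the family, were Gsta2, a glutathione transferase, Col3a1, a fibrillar collagen, and Lgals1, a galectin, at root mean square differences of 0.510, 0.578 and 0.592, where a flat profile would lie at 0.961. Those closest to Cyp2c38 were Plaat3, a phospholipase and acyltransferase (0.383), Csrp3, a LIM domain protein known from muscle (0.386), and Pdk1, a kinase that inhibits pyruvate dehydrogenase (0.401), where a flat profile would lie at 0.661. Cyp2c38 and Cyp2c55 were the members with an SD above 0.5, and no such search was made for the others.

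Cyp2c39, a retinoic acid hydroxylase, stayed between 4.79 and 5.65, below the array medians of 5.96 to 6.00. Its signal was low, and no detection call comes with the values. It measured 5.09, 5.16 and 4.87 in WT vehicle and 5.65, 5.30 and 5.30 in WT GW4064 arrays. GW4064 arrays were all above vehicle arrays in WT, at a difference of 0.38 (SE 0.15, unadjusted p 0.0201, limma adjusted p 0.324), and 0.26 without GW4064 replicate 1. Liver Fxr KO arrays measured 5.09, 5.53 and 5.27 with vehicle and 4.79, 5.31 and 5.24 with GW4064, a difference of -0.18, and Whole body Fxr KO arrays 5.33, 5.13 and 5.42 with vehicle and 5.53, 5.29 and 5.46 with GW4064, a difference of 0.13. In both knockouts the treatments overlapped. The effect in WT minus that in Liver Fxr KO mice was 0.56 (unadjusted p 0.0155, adjusted p 0.644), and 0.44 without WT GW4064 replicate 1.

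Cyp2c70, the enzyme that makes muricholic acids, the bile acids typical of rodents, measured 13.08, 12.69 and 12.84 in WT vehicle and 12.94, 12.97 and 13.06 in WT GW4064 arrays. The treatments overlapped, with a difference of 0.11 (95% interval -0.23 to 0.46, limma adjusted p 0.86). Liver Fxr KO arrays measured 13.26, 13.01 and 13.23 with vehicle and 13.41, 13.33 and 13.14 with GW4064, and Whole body Fxr KO arrays 13.18, 13.24 and 13.00 with vehicle and 13.36, 13.35 and 12.56 with GW4064. With vehicle, the difference from WT was 0.29 in Liver Fxr KO (95% interval -0.06 to 0.64, adjusted p 0.51) and 0.27 in Whole body Fxr KO livers (95% interval -0.08 to 0.62, adjusted p 0.524). The other genes of bile acid synthesis did not pass either: 0 of 15 listed genes in any of the 8 comparisons. With GW4064 in WT, 0.0176% of all probe sets passed. Cyp8b1, another of the 15, measured 11.65 to 12.23 with vehicle and 8.12, 9.79 and 10.46 with GW4064 in WT mice. Its difference was -2.44 (limma adjusted p 0.0526), or -1.77 without GW4064 replicate 1 (adjusted p 0.0805). Cyp7a1, which catalyses the rate-limiting step, measured 10.44 to 10.75 with vehicle and 5.82, 7.18 and 10.19 with GW4064 in WT mice. Its difference was -2.87 (limma adjusted p 0.129), or -1.92 without GW4064 replicate 1. For Cyp8b1 and Cyp7a1, replicate 1 was the GW4064 array farthest from vehicle and replicate 3 the nearest. Their differences without replicate 3 are not given.

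**Figure D2:**
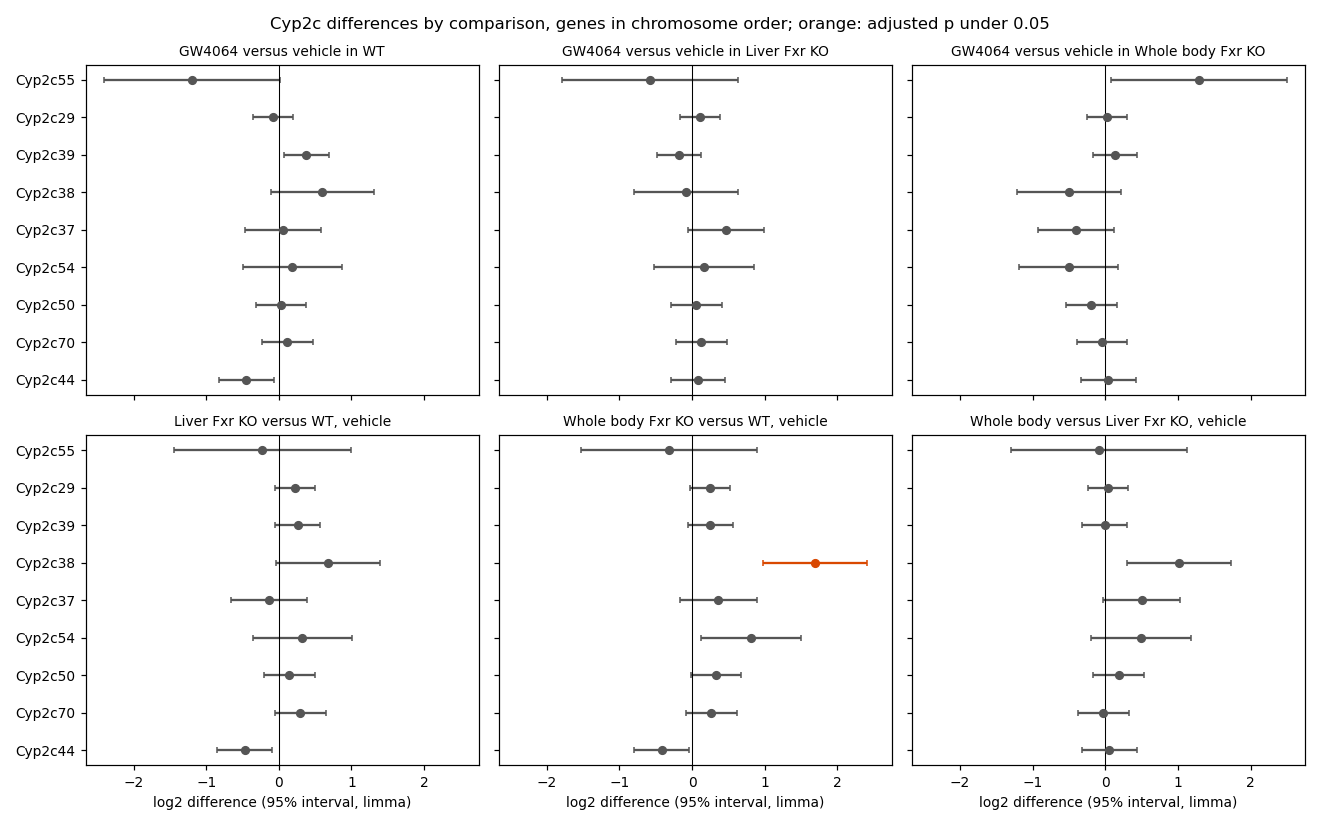
Log2 difference of each Cyp2c member (horizontal axis, points with 95% intervals from limma) in 6 comparisons, with genes in chromosome order and orange for an adjusted p under 0.05. The only orange point is Cyp2c38 in Whole body Fxr KO against WT with vehicle, at 1.69, and the widest intervals are those of Cyp2c55.

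GW4064 gave 0 of 9 members past the threshold in WT mice, where 0.0176% of all probe sets passed in limma. At an unadjusted p under 0.05 there were 2 (Cyp2c39 and Cyp2c44), against 11.5% of all probe sets, and by the methods' t-test at the study's thresholds (an unadjusted p under 0.05 and 1.5 fold) there were 0. The median difference of the family was 0.06 (-0.17 without WT vehicle replicate 3 and 0.14 without WT GW4064 replicate 1), from -1.20 for Cyp2c55 to 0.60 for Cyp2c38, and the median of all probe sets was 0.00. Only Cyp2c39 did not overlap, and 13.9% of all probe sets do not overlap in WT. The 95% interval reached 0.27 to either side of the difference for the most precise member, Cyp2c29, and 1.21 for the least, Cyp2c55. Nr0b2 (SHP), the FXR target that represses bile acid synthesis, measured 10.84, 9.59 and 9.04 with GW4064 in these WT mice. With vehicle it measured 7.85 to 8.21, a difference of 1.85 (limma adjusted p 0.0526), or 1.34 without GW4064 replicate 1. Replicate 1 was the GW4064 array farthest from vehicle and replicate 3 the nearest, and the difference without replicate 3 is not given.

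In Liver Fxr KO mice GW4064 again gave 0 of 9 members (limma, 0% of all probe sets), with 0 at an unadjusted p under 0.05 (5.14% of all) and 0 by the methods' t-test. The family median was 0.08, and Cyp2c29 and Cyp2c37 did not overlap, where 12.4% of all probe sets do not. In Whole body Fxr KO mice GW4064 gave 0 of 9 (limma, 0% of all), with 1 at an unadjusted p under 0.05, Cyp2c55 (6.12% of all), which also passed the study's thresholds in limma (0.498% of all), and 0 by the methods' t-test. The family median was -0.05 (0.05 without GW4064 replicate 3), no member was without overlap between treatments, and 10.1% of all probe sets were. Both tests of a difference of effects, WT minus Liver Fxr KO and WT minus Whole body Fxr KO, gave 0 of 9 members in limma (0% of all probe sets in each), with 1 (6.95% of all) and 2 (7.69% of all) at an unadjusted p under 0.05. The 2 were Cyp2c38 and Cyp2c55, which also passed the study's thresholds (1.75% of all).

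Between genotypes with vehicle, 0 of 9 members passed for Liver Fxr KO against WT, where 0.811% of all probe sets did in limma, and 1, Cyp2c44, had an unadjusted p under 0.05 (12.1% of all). The methods' t-test gave 0 at its thresholds. The family median was 0.22, with 6 of 9 differences above 0, as were 47% of all. Without WT vehicle replicate 3 the median was -0.01, with 4 of 9 above 0 (46.9% of all). For Whole body Fxr KO against WT, 3 of 9 (Cyp2c38, Cyp2c44 and Cyp2c54) had an unadjusted p under 0.05 (13.3% of all), and the median was 0.27, with 7 of 9 above 0 (47.3% of all) and the median of all probe sets at -0.01. Without WT vehicle replicate 3 the family median was 0.17, with 6 of 9 above 0 (47.8% of all). At the study's thresholds, 2 members passed in limma, Cyp2c38 and Cyp2c54 (1.55% of all), and by the methods' t-test 1, Cyp2c38. There, 4 of 9 members (Cyp2c29, Cyp2c50, Cyp2c38 and Cyp2c54) were higher in every knockout array than in any WT array, as were 9.67% of all probe sets. Both knockout comparisons share the WT vehicle arrays. For Whole body against Liver Fxr KO, 0 of 9 passed (0.428% of all), 1, Cyp2c38, had an unadjusted p under 0.05 (11.8% of all) and passed the study's thresholds too (1.45% of all), and 4 were higher without overlap (Cyp2c50, Cyp2c37, Cyp2c38 and Cyp2c54; 11.2% of all).

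**Figure D3:**
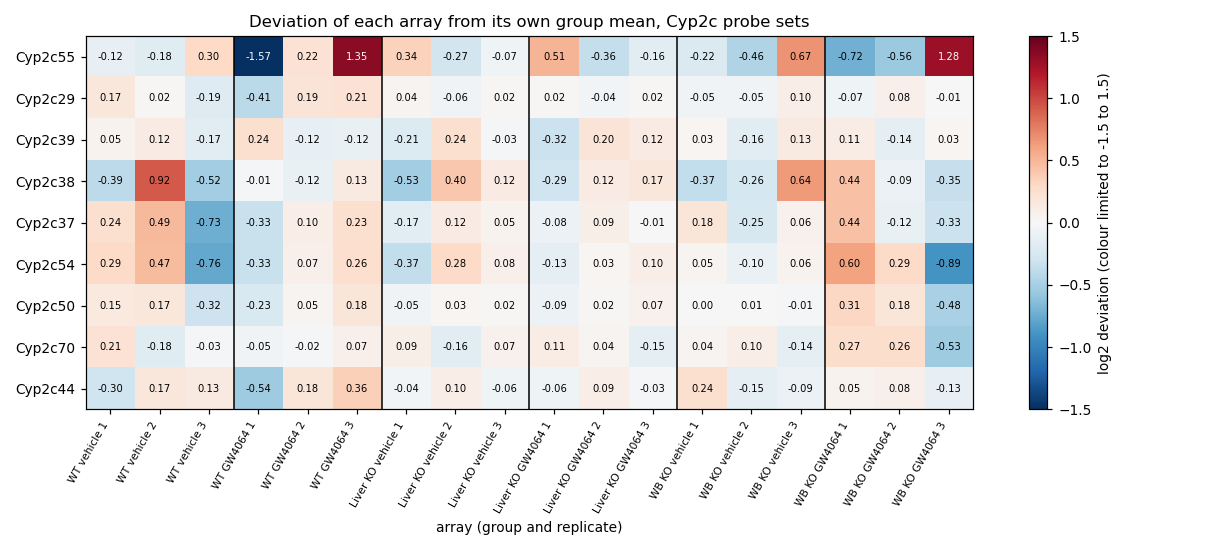
Deviation of each array (columns, group and replicate) from its own group mean for each Cyp2c member (rows), on the log2 scale, blue below and red above. The column medians are lowest in WT GW4064 replicate 1 and Whole body Fxr KO GW4064 replicate 3 (both -0.33), WT vehicle replicate 3 (-0.19) and Whole body Fxr KO vehicle replicate 2 (-0.15), and the highest deviation in the second of these is Cyp2c55 at 1.28.

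In each of the 6 groups, 1 array was the lowest of the 3 in most members. For any gene 1 of the 3 must be the lowest, and the share over all probe sets was not counted. The array was WT GW4064 replicate 1 in 7 of 9 members. WT vehicle replicate 3 and Liver Fxr KO GW4064 replicate 1 were the lowest in 6 of 9 each. So were Whole body Fxr KO vehicle replicate 2 and Whole body Fxr KO GW4064 replicate 3. Liver Fxr KO vehicle replicate 1 was the lowest in 5 of 9. The median deviations of the family from the own group mean were -0.33, -0.19, -0.08, -0.15, -0.33 and -0.05 in these arrays, in that order. Against the WT vehicle mean, the family median lay below 0 in 3 arrays, at -0.19 in WT vehicle replicate 3, -0.20 in WT GW4064 replicate 1 and -0.31 in Whole body Fxr KO GW4064 replicate 3. In the other 15 arrays the family median lay between 0.09 and 0.45 above that mean. These 3 arrays differed in which members were low. Cyp2c54 deviated from its group mean by -0.76, -0.33 and -0.89 in the 3 arrays, in that order, whereas Cyp2c55 deviated by 0.30, -1.57 and 1.28. In WT vehicle replicate 3, the median of 13 pericentral hepatocyte genes, those of the zone by the central vein, lay at -0.41 against the WT vehicle mean, and at 0.16 and 0.24 in replicates 1 and 2. Nr1i3 (CAR), which drives several Cyp2c genes, measured 8.22 in that array, against 8.90 and 9.38 in the other 2, and its part in the Cyp2c values was not tested.

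Of the genes that regulate Cyp2c transcription, 22 of 24 listed were measured and 0 passed with GW4064 in any genotype. Nr1h4 was the only 1 of 22 that passed in each knockout against WT. Nr1i3 differed from WT by 0.07 in Liver Fxr KO (limma adjusted p 0.951) and by 0.34 in Whole body Fxr KO livers (adjusted p 0.582), and Nr1i2 (PXR) by -0.46 (adjusted p 0.423) and -0.55 (adjusted p 0.292). In Whole body against Liver Fxr KO livers 3 of 22 passed, where 0.428% of all probe sets did. All 3 were lower in the Whole body Fxr KO, namely Foxa1 at -1.32 (limma adjusted p 0.0374), Foxa3 at -0.83 (adjusted p 0.0454) and Hnf4a at -0.47 (adjusted p 0.0496). They code for factors that maintain hepatocyte gene expression. All 3 calls were lost with any 1 of the 6 arrays left out, at differences of -1.20, -0.68 and -0.41 or lower. Of 37 other P450 enzymes of families 1 to 4, 1 passed in Whole body Fxr KO against WT (0.948% of all probe sets). This was Cyp2g1, at 1.38 (limma adjusted p 0.0135), and 0 passed in the 7 other comparisons. The Cyp2g1 call held in 2 of 6 fits with an array left out, and was lost without WT vehicle replicate 1 or 3 or Whole body Fxr KO vehicle replicate 2 or 3 (difference at least 1.18). Cyp2b10, the marker target of CAR, measured 7.36 to 7.72 in WT vehicle, 8.52 to 8.68 in Liver Fxr KO vehicle and 8.54 to 9.75 in Whole body Fxr KO vehicle arrays, and neither difference passed (adjusted p 0.395 and 0.206). Of 4 measured electron donors and 13 genes of epoxide and arachidonic acid metabolism, 0 passed in any comparison.

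Between Whole body Fxr KO and WT livers given vehicle, some listed genes of the liver zones and of other cell types passed. In that comparison 0.948% of all probe sets did. Of 13 pericentral genes, 2 passed, Gstm3 at 1.54 and Rhbg at 0.90 (limma adjusted p 0.0418 and 0.0408), with a list median of 0.34 and 12 of 13 above 0. Without WT vehicle replicate 3 that median was 0.13, with 10 of 13 above 0, and per array the groups overlapped, at 0.20 to 0.50 in Whole body Fxr KO vehicle against -0.41 to 0.24 in WT vehicle arrays. Of 9 periportal genes 1 passed, Hal, a histidine-degrading enzyme, at -1.75 (adjusted p 0.00253), with a list median of -0.15 that was 0.04 without WT vehicle replicate 3. Among 12 female-biased genes, Cyp17a1, an enzyme of steroid synthesis, passed at 2.69 (adjusted p 0.0216). Endothelial markers had a median of 0.39 (8 of 8 above 0, 0 passed) and stellate cell markers 0.37 (6 of 7 above 0), of which Pdgfrb passed at 0.72 (adjusted p 0.0451). Per array, the median of the endothelial list ran from 0.23 to 0.46 in Whole body Fxr KO vehicle against -0.02 to 0.01 in WT vehicle arrays, and that of the stellate list from 0.23 to 0.42 against -0.12 to 0.20. The median of the Kupffer cell and macrophage list ran from 0.02 to 0.52 against -0.15 to 0.07. That of the T and B cell list ran from -0.21 to -0.02 against -0.08 to 0.10. In these last lists the groups overlapped. With each of the 6 arrays left out in turn, Hal passed in all 6 fits. Cyp17a1 and Pdgfrb lost the call without WT vehicle replicate 1 or 2 or Whole body Fxr KO vehicle replicate 1 or 3, Gstm3 passed only in the fit without WT vehicle replicate 3, and Rhbg only in that without WT vehicle replicate 1. The 6 hepatocyte markers had a median difference of 0.00. The part of these differences in the Cyp2c38 value was not tested.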

How the data were processed

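Liver RNA of 18 mice was hybridised to 1 array each. The authors normalized the arrays with RMA, whose version is not given in the sources used here, and the log2 values they deposited, 1 per probe set, were used unchanged. RMA combines background correction, quantile normalization and a median-polish summary of probes. The methods name another array (Mouse Gene 1.0 ST) than the platform the values were deposited under, and gene names were taken from that platform's annotation. No detection call comes with the values.

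Groups came from the sample labels, and separate mice were taken as replicates. lmFit and eBayes (limma 3.58.1, R 4.3.3) were applied to 22690 probe sets with all 6 groups in the model and 12 residual degrees of freedom. P-values were two-sided, with Benjamini-Hochberg adjustment across all probe sets and a threshold of 0.05. There were 8 comparisons: GW4064 against vehicle in each genotype, 3 between genotypes with vehicle, and 2 differences of GW4064 effects. The study's thresholds are an unadjusted p under 0.05 and 1.5 fold. Members, lists and tests were chosen with earlier results of these data known. Named are every member, up to 4 genes per list and comparison past the threshold, Nr1h4, Nr1i3 and Nr1i2, and the 3 nearest profiles of members with an SD above 0.5. Por, also in that rule, was not found under a symbol of its own. Lcn2, Hsd3b5, Slco1a1, Cyp2b9, Cyp2b10, Cyp7a1, Cyp8b1, Nr0b2, Alb, Cyp2c65 and Cyp2c68 were named outside it. On simulated data for Whole body Fxr KO against WT with 22690 probe sets, limma called 80% of probe sets changed by 1.5 fold and 98% at 2 fold, and 10 of 22490 unchanged ones. The changed probe sets were drawn at random from the whole array, with normal noise and no outlying arrays. These shares therefore do not apply to members of wide spread, such as Cyp2c54, Cyp2c38 and Cyp2c55 (pooled SD within groups 0.46, 0.48 and 0.83). Promoters came from RefSeq and were aligned with Biopython 1.88, and plots were made in Python 3.11.15 (matplotlib 3.10.9). Precision is limited by n = 3 arrays per group.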

Additional observations from a re-analysis of the deposited data

How the results depend on the processing

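Alternatives covered the samples fitted (the compared groups alone, or each array left out), the limma settings (array weights, a trended and robust prior, the replicate number as a block), the scaling (quantile normalization, median centring), the probe sets tested (1 per gene, those with 1 symbol, or without the 40% dimmest) and the test (the methods' t-test, the study's thresholds in limma). Chosen after seeing the data were the removal of both arrays that stood apart, the average over treatments, also without these arrays, and the family, list and context gene values with an array left out. In Whole body Fxr KO against WT with vehicle, the 1 member past the threshold (Cyp2c38) became 0 with the compared groups only, 0 with the trended and robust prior, 0 by the methods' t-test after Benjamini-Hochberg adjustment and 2 (Cyp2c38 and Cyp2c54) at the study's thresholds. Leaving out each array gave 0 to 1 members. At the study's thresholds, GW4064 in Whole body Fxr KO mice gave 1 member (Cyp2c55), Whole body against Liver Fxr KO gave 1 (Cyp2c38) and the difference of effects between WT and Whole body Fxr KO gave 2 (Cyp2c38 and Cyp2c55), where limma at the adjusted threshold gave 0. The cause of these moves was not tested. Of the 11 differences of members with an unadjusted p under 0.05, 0 changed sign in 223 alternatives. Of all 72 member differences, 71 of 1450 alternatives changed sign, in differences of at most 0.62 in size. A difference stays the same by design where only the spread estimate, the probe sets tested or the test was altered. Its sign could not change there, and the 11 were picked for a low p, so these counts say little about robustness.

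Replicate numbers were not used to pair the samples. Same-numbered deviations correlated at -0.18 to 0.32, and in no comparison were all 3 above 0.1. In Whole body Fxr KO against WT with vehicle they were 0.092, 0.097 and 0.16. Whether same-numbered arrays share a batch cannot be told from such values. With the replicate block, Cyp2c38 kept an adjusted p of 0.0229 (limma), the count of members stayed at 1 in that comparison and at 0 in the others tested with it. Over all probe sets, the number past the threshold with GW4064 in WT was 4, against 0 with the compared groups only, 32 with array weights, 24 with 1 probe set per gene and 393 without WT GW4064 replicate 3, and in Whole body against Liver Fxr KO it was 97, against 417 with array weights and 22 to 43 with an array left out.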
